A study of Mus musculus with 6 samples.

Results

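Mitochondrial ribosomal protein genes were compared between Gr1hi and Gr1lo myeloid cells of mouse bone marrow. They were taken as every gene whose symbol in the platform annotation begins with Mrpl or Mrps followed by a number. The rule found 76 genes among the 18193 genes with a probe set of their own on the array, 47 named for the large ribosomal subunit and 29 for the small one. All 76 passed the filter on low values and were among the 12739 genes tested. Each gene was read from 1 probe set, the one with the highest mean over all 6 arrays among those that name that gene alone.

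The cells came from the femurs and tibias of Hdc-GFP mice (C57BL/6 background), in which green fluorescent protein reports Hdc, the gene of the histamine-making enzyme histidine decarboxylase. By their titles both groups were sorted on the reporter (positive or high) and on CD11b, a surface integrin of the myeloid lineage. Cells without the reporter are outside both by these titles, but the description of a sample taken up below can be read otherwise. One group was high for the antigen Gr1 (Gr1hi, 3 arrays) and the other low (Gr1lo, 3 arrays). Both groups carry the same genotype and the female label, and the labels name no treatment and give no age. The labels do not say that replicates came from separate mice, so p-values measure the spread between these samples, which may be technical. Every difference is Gr1hi minus Gr1lo on the log2 scale of the deposited values, so a negative difference means lower in Gr1hi.

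Mitochondria have a ribosome of their own, which makes the few proteins that mitochondrial DNA encodes, all of them subunits of the respiratory chain and of ATP synthase. Its RNAs are encoded in the mitochondrion, while its proteins are encoded in the nucleus, made in the cytosol and imported. Some of these proteins have counterparts in bacterial ribosomes and others are found in mitochondrial ribosomes alone. Mature neutrophils are known for few mitochondria and a reliance on glycolysis, and their dividing precursors in the marrow hold more mitochondria.

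Markers and arrays were read before the members. Of 7 myeloid identity genes 6 were higher in Gr1hi, and Tyrobp, a signalling adaptor of myeloid cells, averaged 14.10 in Gr1hi and 13.42 in Gr1lo. All 5 early granulocyte genes and all 9 proliferation genes tested were lower in Gr1hi, and 6 of 8 mature neutrophil genes were higher. The mean level of the proliferation genes lay between 8.02 and 8.28 on the Gr1hi arrays and between 11.78 and 11.91 on the Gr1lo arrays. That of the early granulocyte genes lay between 7.78 and 8.69 in Gr1hi and between 12.48 and 12.94 in Gr1lo. The T and NK cell genes Cd3e, Cd3g, Cd2 and Ncr1 and the erythroid genes Hba-a1, Klf1 and Alas2 stayed at or below 2.77, the highest value of the controls for absent transcripts, on every array. The other genes of those lists were Klrb1b, a receptor gene of NK cells, at 3.03, 2.85 and 3.05 in Gr1hi and 2.59, 2.37 and 2.81 in Gr1lo (0.38, adjusted p = 0.0248), and Epor, the erythropoietin receptor, at no more than 2.79. The B cell genes averaged between 3.30 and 3.72 on the Gr1hi arrays and between 3.27 and 3.34 on the Gr1lo arrays. Of these 5 genes 2 were higher (Ms4a1 by 0.96 and Cd79a by 0.31) and 1 lower (Cd79b, -0.74). Of 4 tested megakaryocyte genes 1 was higher and 1 lower. Among 4 tested genes of stroma and endothelium 2 were higher and 0 lower. The monocyte genes averaged between 5.77 and 6.99 in Gr1hi and between 5.43 and 6.74 in Gr1lo, with the highest value of each group in its replicate 3, and the basophil and mast cell genes between 3.00 and 4.90 in Gr1hi and between 3.69 and 4.69 in Gr1lo, again highest in replicate 3. Of 4 tested basophil and mast cell genes 1 was lower (Ms4a2, -1.64, limma adjusted p = 2.06e-03) and 0 higher. Of the 8 monocyte genes 1 was higher and 1 lower. Csf1r encodes the receptor through which CSF1 acts on macrophages and was 16.1-fold higher in Gr1hi (4.01, adjusted p = 3.15e-05). F13a1, a coagulation factor gene of monocytes, was lower (-0.98, adjusted p = 0.0246). The proliferation and maturation markers thus separate the same arrays as the members do, and their part in the members' differences was not tested.

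Some arrays stood apart or went against their labels. Eif2s3y, a gene of the Y chromosome, lay between 9.02 and 10.66 on all 6 arrays although all are labelled female. Xist, the RNA that coats the silenced X chromosome of females, read 10.14 in Gr1hi replicate 3 and 10.95 in Gr1lo replicate 3, and at most 2.43 on the other arrays. The description of Gr1lo replicate 3 can be read as GFP-negative, whereas its title places it with the other Gr1lo samples. Without both replicate 3 arrays 66 members were lower and 2 higher, against 29.3% of all genes lower and 21.5% higher in that fit. Gr1lo replicate 2 was the highest of its group in 66 of the 76 members, and the counts without it are given below.

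Transcripts of the mitochondrial ribosome were lower in Gr1hi cells in both subunits. Of the 76 genes 67 (88.2%) were lower at a limma adjusted p under 0.05, 2 were higher and 7 did not pass the test. Over all genes tested 31.8% were lower and 24.6% higher by the same rule, 56.4% in all. The median difference was -1.69 over the members and 0.03 over all genes tested. Differences ranged from -4.08 in Mrpl12 to 0.94 in Mrpl33. Because RNA was taken from sorted populations as a whole, fewer cells of a type and less RNA per cell cannot be told apart.

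The falls were large as well as frequent. Called falls of at least 2-fold were found in 56 members, against 19.4% of all genes, and of at least 4-fold in 30 members, against 9.04%. Falls of at least 8-fold were found in 10 members, against 4.27% of all genes. The 3 Gr1hi arrays all lay below the 3 Gr1lo arrays in 68 members, against 34.7% of all genes, and all above them in 4, against 30.7%. In the other 4 members, Mrpl4, Mrpl14, Mrpl43 and Mrpl48, the arrays of the groups overlapped.

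**Figure D1:**
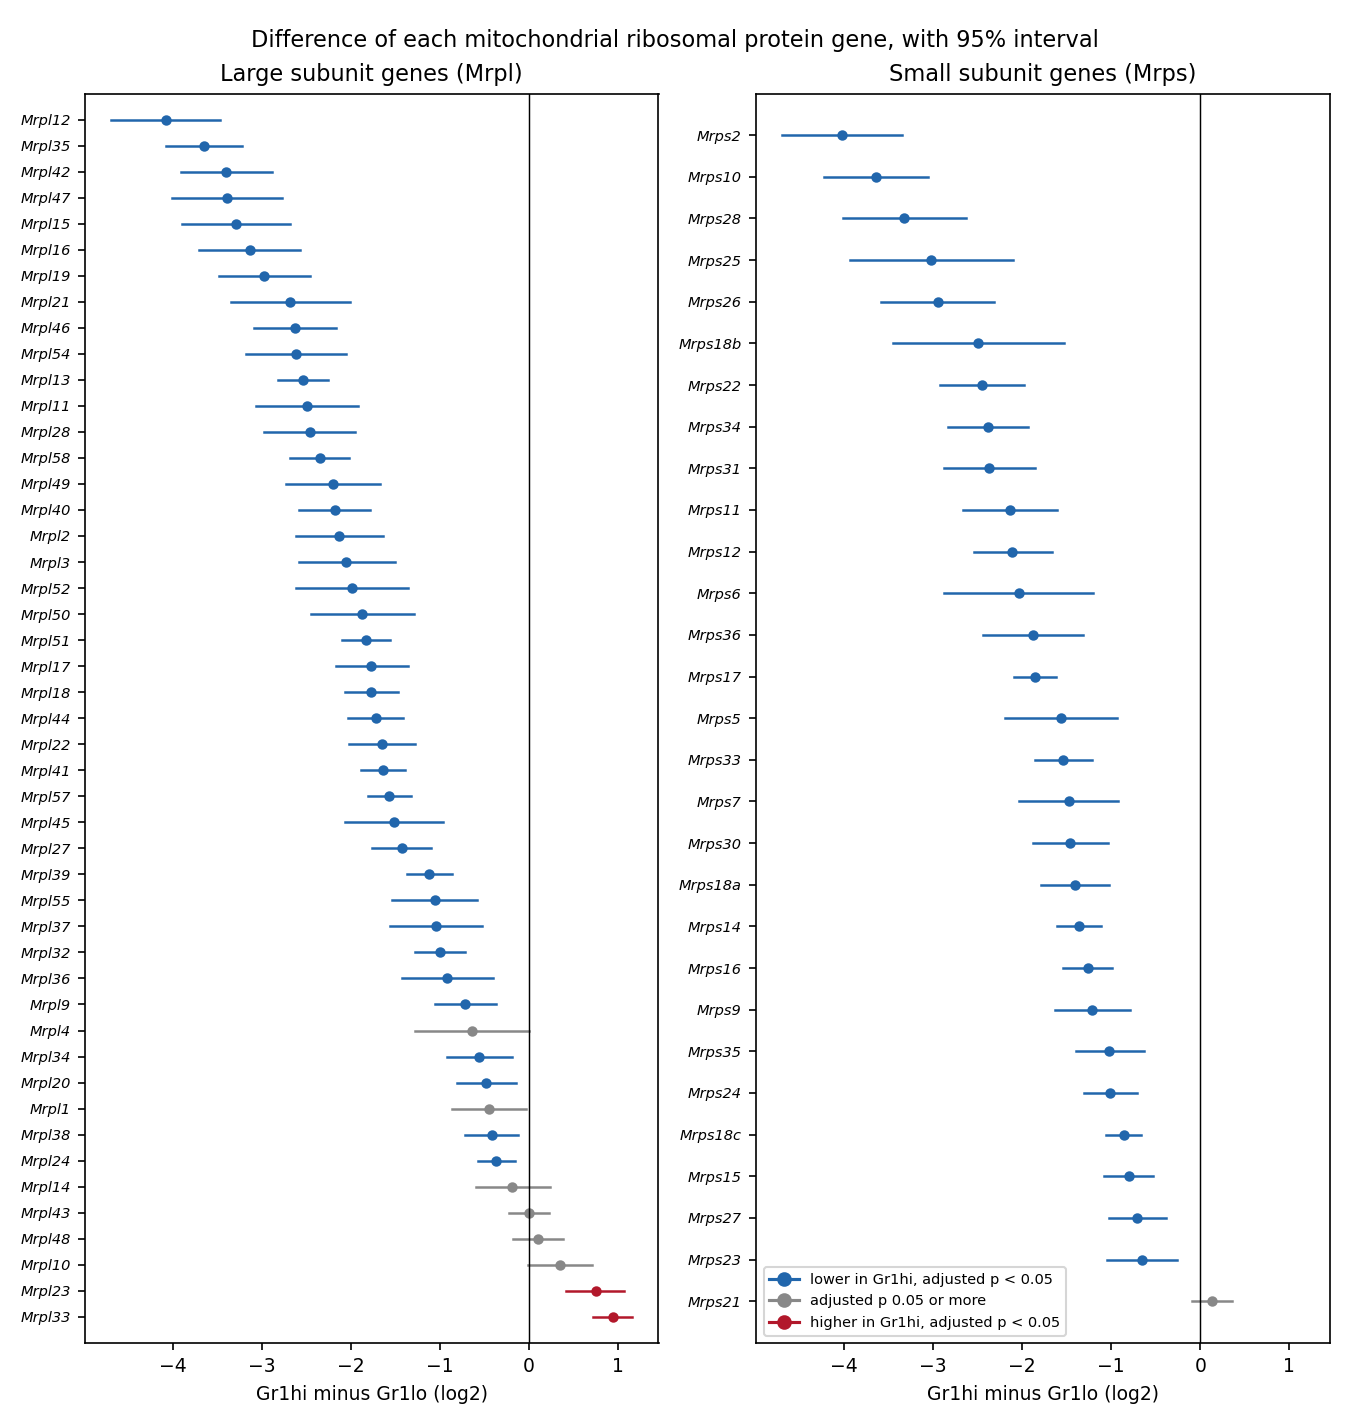
Difference between Gr1hi and Gr1lo (log2, x axis) for each of the 47 Mrpl genes (left) and 29 Mrps genes (right), with the limma estimate as a point and its 95% interval as a line. On the deposited scale 67 points are blue (lower in Gr1hi), 2 red (higher) and 7 grey (not past the threshold). Of all genes tested 31.8% are lower and 24.6% higher on that scale. After centring arrays on the median of tested genes the same test calls 54 members lower and 8 higher. Under that centring 18.2% of all genes are lower and 65.6% higher.

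Most genes of either subunit were lower. Among the 47 Mrpl genes 39 were lower, 2 higher and 6 uncalled, with a median difference of -1.72 and quartiles of -2.47 and -0.68. Among the 29 Mrps genes 28 were lower, 0 higher and 1 uncalled (Mrps21), with a median of -1.56 and quartiles of -2.38 and -1.21. The spread within either subunit was thus wider than the gap between their medians, and the difference between subunits was not tested. Names do not follow structure everywhere, since the proteins of Mrps18a and Mrps30 sit in the large subunit and that of Mrps36 is counted with neither. By structure, 41 of 49 large subunit genes and 25 of 26 small subunit genes were lower.

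Members classed as having a bacterial counterpart and members classed as specific to mitochondria were both mostly lower. Of 45 genes of the former class 38 were lower and 2 higher, with a median of -1.56. Of 30 genes of the latter class 28 were lower and 0 higher, with a median of -1.78. This latter class includes Mrps18a in the large subunit and Mrps18b in the small one, although both are relatives of a bacterial protein. The small subunit genes of that class, with Mrps18b among them, had the lowest median, -2.38, with 10 of 10 genes lower. The conserved proteins of the large subunit, with a median of -1.65 over 29 genes, held both genes that were higher.

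The size of these counts rests on how the arrays are scaled. On the deposited scale the array medians of the tested genes were between 4.77 and 4.89 in Gr1hi and between 5.46 and 5.56 in Gr1lo, although the medians over all probe sets were between 2.86 and 2.94. Centring each array on the median of tested genes moved the median difference of all of them to 0.70. The members then had 54 genes lower and 8 higher (background 18.2% lower and 65.6% higher) and a median of -1.01. The genes higher under that centring were Mrpl10, Mrpl14, Mrpl23, Mrpl24, Mrpl33, Mrpl43, Mrpl48 and Mrps21, of which Mrpl24 had been called lower. Centring on the hybridization controls, transcripts added in fixed amounts, moved the median of all genes to -0.23 and gave 69 members lower and 2 higher (background 38.1% and 14.6%), with a median of -1.94. Centring shifts all genes of an array alike, so the distance of the members from the median of all genes is the same under each.

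Mrpl12 had the largest fall. Its protein is part of the flexible stalk to which translation factors bind. It read 4.37, 4.24 and 4.41 on the Gr1hi arrays and 8.19, 9.06 and 8.01 on the Gr1lo arrays. All Gr1hi arrays thus lay far below all Gr1lo arrays, a 16.9-fold difference (-4.08, SE 0.27, limma adjusted p = 1.93e-06). Mrps2, a conserved protein of the small subunit, read 3.24, 3.82 and 4.0 in Gr1hi and 7.51, 8.27 and 7.34 in Gr1lo. The 3 Gr1hi values lay nearer to 2.77, the top of the absent-transcript controls, than to any Gr1lo value, and the difference was -4.02 (SE 0.30, adjusted p = 3.37e-06), 16.2-fold. A second tested probe set of Mrps2 differed by 0.14 and was not called.

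Mrpl35, a conserved protein of the large subunit, read 5.41, 5.47 and 5.33 in Gr1hi and 8.79, 9.40 and 8.97 in Gr1lo. It showed little spread within Gr1hi and a 12.5-fold difference (-3.65, SE 0.19, adjusted p = 4.84e-07). Mrps10, a conserved protein of the head of the small subunit, read 4.74, 3.97 and 4.53 in Gr1hi and 7.76, 8.42 and 7.98 in Gr1lo. That is a 12.4-fold difference (-3.64, SE 0.26, adjusted p = 2.73e-06) with no overlap. The second tested probe sets of Mrpl35 and Mrps10 differed by 0.00 and -0.48.

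Mrpl42, found in mitochondrial ribosomes alone, read 7.29, 6.73 and 6.49 in Gr1hi and 10.14, 10.57 and 10 in Gr1lo, a difference of -3.40 (SE 0.23, adjusted p = 1.97e-06). Its Gr1hi arrays were all well above the level of absent transcripts. Mrpl47, a conserved protein at the end of the tunnel through which the new protein leaves, read 4.42, 4.34 and 5.07 in Gr1hi and 7.67, 8.47 and 7.87 in Gr1lo. It differed by -3.39 (SE 0.27, adjusted p = 5.99e-06) without overlap, and its second tested probe set by -0.01. Mrps28 is a small subunit protein. It read 4.14, 3.99 and 4.11 in Gr1hi and 7.09, 8.17 and 6.95 in Gr1lo, and the difference was 9.99-fold (-3.32, SE 0.31, adjusted p = 1.41e-05), with Gr1lo replicate 2 more than 1 unit above the other Gr1lo arrays.

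Mrpl15, a conserved large subunit protein, had the most probe sets. The chosen one read 6.33, 5.91 and 5.30 in Gr1hi and 9.04, 9.46 and 8.90 in Gr1lo, a 9.76-fold difference (-3.29, SE 0.27, adjusted p = 6.19e-06). All 6 of its other tested probe sets were lower too, by -0.43 to -3.07. Mrpl16, which lies beside the site where transfer RNAs enter the large subunit, read 4.75, 4.63 and 4.91 in Gr1hi and 7.54, 8.44 and 7.71 in Gr1lo. It differed 8.77-fold (-3.13, SE 0.25, adjusted p = 5.53e-06), again without overlap. Mrps25, a mitochondria-specific small subunit protein, read 5.19, 4.29 and 4.32 in Gr1hi and 7.66, 8.42 and 6.77 in Gr1lo. Its groups did not overlap, but its Gr1lo arrays spread over more than 1.5 units, and it differed 8.08-fold (-3.02, SE 0.41, adjusted p = 1.59e-04). Its second tested probe set was called lower too, but by only -0.93.

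A pair of members was higher in Gr1hi. Mrpl33, a small conserved protein of the large subunit, read 11.79, 11.57 and 11.59 in Gr1hi and 10.78, 10.75 and 10.59 in Gr1lo. All Gr1hi arrays were above all Gr1lo arrays, a 1.92-fold difference (0.94, SE 0.10, adjusted p = 2.86e-05), and its other probe set was higher too, by 0.52. Mrpl23, a conserved protein at the exit of the tunnel, read 9.67, 9.62 and 9.88 in Gr1hi and 8.92, 9.22 and 8.79 in Gr1lo. It was 1.68-fold higher (0.75, SE 0.14, adjusted p = 1.54e-03), also without overlap. Both kept the call and the direction under each scaling, but Mrpl23 did not pass a test against a 1.5-fold change (adjusted p = 0.388, with 6.90e-06 to 0.388 over 19 alternatives).

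The 7 members that did not pass the test differed in how near to 0 they lay. Mrpl43, a mitochondria-specific large subunit protein, read 9.72, 9.76 and 9.73 in Gr1hi and 9.72, 9.74 and 9.75 in Gr1lo. The groups coincided, with a difference of 0.00 and a 95% interval of -0.22 to 0.22. Mrps21, the one Mrps gene not called, read 10.14, 10.12 and 10.26 in Gr1hi and 10.03, 10.03 and 10.08 in Gr1lo (difference 0.13, interval -0.09 to 0.35). Its second tested probe set was called higher (0.71, adjusted p = 6.93e-03). Mrpl14, a conserved large subunit protein, read 6.60, 6.78 and 6.60 in Gr1hi and 6.69, 7.12 and 6.73 in Gr1lo, overlapping, with a difference of -0.19 and an interval of -0.60 to 0.23. Mrpl1, a conserved protein of the large subunit, had Gr1hi values of 7.41, 7.42 and 7.40 and Gr1lo values of 7.59, 8.22 and 7.77, and its difference of -0.45 had an adjusted p of 0.0659, whereas another of its probe sets was called lower (-0.71, adjusted p = 8.53e-03). Mrpl4, Mrpl10 and Mrpl48 are described with their structural groups.

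**Figure D2:**
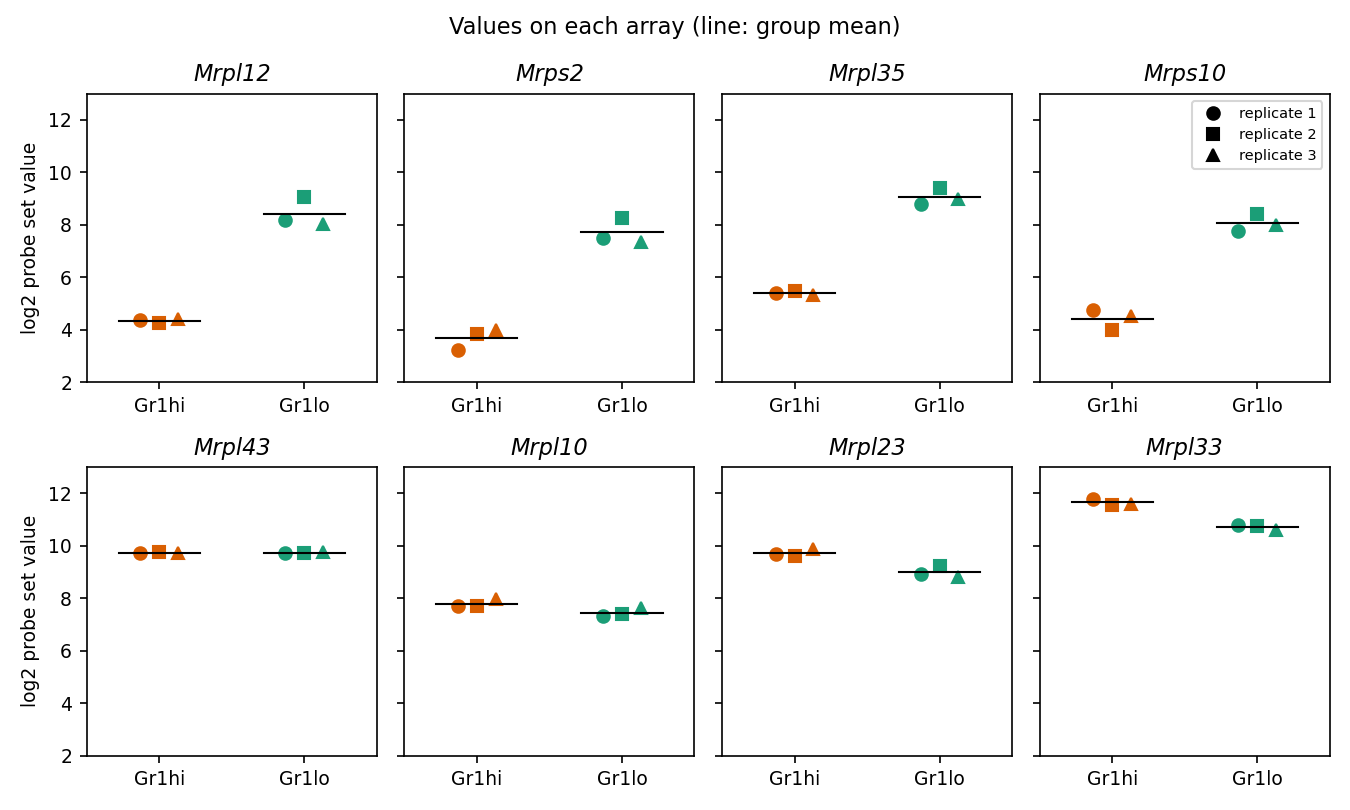
Deposited log2 value (y axis) of 8 members on each of the 6 arrays, Gr1hi left and Gr1lo right, with a symbol for each replicate number and a line at the group mean. The top row shows the 4 largest falls (Mrpl12, Mrps2, Mrpl35 and Mrps10), where the arrays are far apart, and the bottom row Mrpl43 and Mrpl10, which were not called, and Mrpl23 and Mrpl33, which were higher in Gr1hi.

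The promoters of the members were read for short motifs. RefSeq windows (build GRCm38.p6, 250 bases before to 50 after each start) were at hand for 67 members. The motif CCGGAAG, to which ETS factors such as GABP bind, was found on either strand in 25 of them. It stood in 34.2% of the members' windows, against 8.86% of all windows and 16.4% of windows of tested genes. It was present in 21 of 59 members that were lower, in 3 of 6 that were not called and in Mrpl33, which was higher, so it did not separate the directions. The median difference was -1.57 in members with the motif and -1.68 in those without. The 100 bases before the start are printed 5′ to 3′ on the gene's strand, with a CCGGAAG or its reverse complement CTTCCGG in capitals, for the members with the 2 largest falls, the 2 that fell most among those with the motif in that stretch, both members that were higher, and the member whose groups coincided.
Mrpl12: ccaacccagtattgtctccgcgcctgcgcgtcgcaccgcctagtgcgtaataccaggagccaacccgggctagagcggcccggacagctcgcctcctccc
Mrps2: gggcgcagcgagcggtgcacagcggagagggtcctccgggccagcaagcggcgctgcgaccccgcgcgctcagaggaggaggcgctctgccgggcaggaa
Mrps26: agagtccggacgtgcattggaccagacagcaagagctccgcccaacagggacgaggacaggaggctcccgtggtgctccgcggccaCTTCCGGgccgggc
Mrps22: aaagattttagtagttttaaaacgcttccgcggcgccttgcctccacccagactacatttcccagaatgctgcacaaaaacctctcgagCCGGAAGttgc
Mrpl33: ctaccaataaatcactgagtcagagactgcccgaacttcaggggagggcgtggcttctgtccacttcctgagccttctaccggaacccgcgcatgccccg
Mrpl23: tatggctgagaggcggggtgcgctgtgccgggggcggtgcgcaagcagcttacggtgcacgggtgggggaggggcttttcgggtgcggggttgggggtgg
Mrpl43: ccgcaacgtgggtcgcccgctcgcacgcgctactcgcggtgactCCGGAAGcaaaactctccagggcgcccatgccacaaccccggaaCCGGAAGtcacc

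In GRCm38.p6 these stretches are chr11:120484537-120484636 (Mrpl12, plus strand), chr2:28467966-28468065 (Mrps2, plus), chr2:130563657-130563756 (Mrps26, plus), chr9:98601680-98601779 (Mrps22, minus), chr5:31613851-31613950 (Mrpl33, plus), chr7:142532932-142533031 (Mrpl23, plus) and chr19:45006443-45006542 (Mrpl43, minus). In Mrps26, a mitochondria-specific small subunit gene that differed by -2.94, the match begins 14 bases before the start. In Mrps22, likewise specific to mitochondria and lower by -2.45, it begins 11 bases before. Mrpl43, whose level was the same in both groups, holds 2 matches within 56 bases of its start. The match of Mrpl33 begins 3 bases before its start and runs past it, so it is not seen whole in the stretch printed.

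Other motifs were searched on both strands in the same windows. AAGATGG, the core bound by YY1, was found in 13 of the 67 members, all 13 among the 59 of the 67 that were lower on the deposited scale. The median difference was -1.47 in members with it and -1.64 in those without. It stood in 17.8% of the members' windows, against 6.34% of all windows and 6.92% of windows of tested genes. The palindromic consensus of NRF1, 10 letters long, was found in 3 members (4.11% of the members' windows, against 0.971% of all and 1.96% of tested). CACGTG, the E-box bound by MYC, was found in 5 members (9.59%, against 7.15% and 9.64%), GGGCGG in 34 (53.4%, against 35.7% and 58.5%) and CCAAT in 26 (39.7%, against 37.4% and 37.3%). These are matches of letters, and binding was not measured.

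The stalk, which recruits translation factors to the large subunit, held both the largest fall and a member that was not called. Beside Mrpl12, Mrpl11, which anchors the stalk to ribosomal RNA, read 6.22, 5.83 and 6.37 in Gr1hi and 8.45, 9.17 and 8.28 in Gr1lo, a 5.62-fold difference (-2.49, SE 0.25, adjusted p = 2.49e-05). The other tested probe sets of Mrpl11 differed by -2.11, -1.9 and -0.05. Mrpl10, the protein on which copies of Mrpl12 sit, read 7.71, 7.70 and 7.97 in Gr1hi and 7.32, 7.40 and 7.62 in Gr1lo. Its Gr1hi arrays were all above its Gr1lo arrays, but the difference of 0.35 (interval -0.01 to 0.71) did not pass the test (adjusted p = 0.0926). It passed under 4 alternatives, among them repeated quantile normalization (0.47, adjusted p = 0.0321) and array weights (0.41, adjusted p = 0.0366), and its adjusted p ran from 2.39e-04 to 1 over 19 alternatives.

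Around the peptidyl transferase centre, where peptide bonds are made, 4 of 5 members were lower. Besides Mrpl16, Mrpl2 read 5.28, 5.55 and 5.44 in Gr1hi and 7.16, 7.82 and 7.69 in Gr1lo (-2.13, 4.38-fold, adjusted p = 2.43e-05). Mrpl3 read 5.94, 6.37 and 6.10 in Gr1hi and 7.80, 8.65 and 8.09 in Gr1lo (-2.05, adjusted p = 5.67e-05). Both are among the most conserved ribosomal proteins, and neither showed an overlap. The other tested probe sets of Mrpl3 differed by -1.59 and -0.06. Mrpl27, whose bacterial counterpart reaches into the centre, read 8.38, 8.46 and 8.62 in Gr1hi and 9.66, 10.08 and 10.02 in Gr1lo (-1.43, adjusted p = 2.50e-05). Mrpl4 read 4.98, 5.27 and 5.43 in Gr1hi and 5.41, 6.48 and 5.73 in Gr1lo, where 1 Gr1lo array fell within the Gr1hi range, and its difference of -0.64 was not called (adjusted p = 0.0805). It was called without Gr1lo replicate 1 (-0.88, adjusted p = 0.0339) and under centring on the hybridization controls (-0.90, adjusted p = 0.0144), and its adjusted p ran from 0.0144 to 0.975 over 19 alternatives.

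The central protuberance, the part of the large subunit that faces the head of the small one, also had 4 of 5 members lower. Mrpl46 read 4.40, 4.59 and 4.72 in Gr1hi and 6.90, 7.42 and 7.26 in Gr1lo (-2.63, 6.17-fold, adjusted p = 4.74e-06). Mrpl40 read 6.57, 6.38 and 6.46 in Gr1hi and 8.36, 8.92 and 8.66 in Gr1lo (-2.18, adjusted p = 6.32e-06). The groups were apart in both, which are specific to mitochondria. Mrpl18, a conserved protein, read 9.29, 9.26 and 9.44 in Gr1hi and 10.98, 11.38 and 10.95 in Gr1lo (-1.77, 3.41-fold, adjusted p = 4.10e-06). Mrpl38 read 3.40, 3.41 and 3.34 in Gr1hi and 3.65, 3.86 and 3.90 in Gr1lo. Its small difference of -0.42 (adjusted p = 0.0211) lost the call without Gr1hi replicate 1 (adjusted p = 0.051), without Gr1hi replicate 3 (0.0587), without Gr1lo replicate 2 (0.0527) and without Gr1lo replicate 3 (0.0651), and it had the opposite sign, 0.25, with arrays centred on the median of tested genes. Over 19 alternatives the adjusted p of Mrpl38 ran from 0.00808 to 1. Its other tested probe sets differed by 0.00 and 0.01. Mrpl48 read 9.14, 9.27 and 9.01 in Gr1hi and 8.94, 9.14 and 9.05 in Gr1lo, overlapping and not called (0.10, interval -0.18 to 0.38).

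The proteins around the tunnel exit were lower in 7 of 8 members, with a median of -1.59, and Mrpl23 was the one that was higher. After centring on the median of tested genes 6 of the 8 were lower and 2 higher, the second being Mrpl24. Mrpl24 read 10.36, 10.36 and 10.28 in Gr1hi and 10.69, 10.77 and 10.63 in Gr1lo, and its difference of -0.37 was the smallest of all those called lower on the deposited scale.

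In the small subunit, the proteins near the decoding centre and along the path of the messenger RNA were lower in 4 of 4 members. Besides Mrps2, Mrps12, the protein of the decoding centre, read 6.84, 7.10 and 7.49 in Gr1hi and 9.04, 9.46 and 9.25 in Gr1lo (-2.11, 4.31-fold, adjusted p = 1.35e-05). Mrps5, at the entry of the messenger, read 3.93, 3.58 and 4.08 in Gr1hi and 5.18, 6.04 and 5.04 in Gr1lo (-1.56, adjusted p = 9.99e-04). The other tested probe sets of Mrps5 differed less, by -0.71 (not called) and -0.43. Mrps24, also at the entry, read 8.57, 8.53 and 8.66 in Gr1hi and 9.53, 9.81 and 9.45 in Gr1lo (-1.01, 2.02-fold, adjusted p = 1.36e-04). No Gr1hi array reached the lowest Gr1lo array in any of them. The probe set of Mrps24 is of a class that can match several transcripts, as were those chosen for 8 members in all. The head of the small subunit had 6 of 6 members lower, by -1.21 to -3.64.

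Vertebrate mitochondria have 3 relatives of the bacterial protein S18, and the genes of all of them were lower. Mrps18b, whose protein sits in the small subunit, read 4.15, 4.36 and 4.0 in Gr1hi and 6.19, 7.81 and 5.97 in Gr1lo (-2.49, SE 0.43, adjusted p = 7.40e-04). Its Gr1lo SD of 1.00 was the highest of any member, with replicate 2 far above the others. Mrps18a, whose protein sits in the large subunit, read 7.0, 7.26 and 7.32 in Gr1hi and 8.35, 8.73 and 8.72 in Gr1lo (-1.41, adjusted p = 6.97e-05). Mrps18c, in the small subunit, read 10.27, 10.38 and 10.32 in Gr1hi and 11.17, 11.26 and 11.13 in Gr1lo (-0.86, 1.82-fold, adjusted p = 2.58e-05). After centring on the median of tested genes Mrps18c differed by -0.19 and was no longer called (adjusted p = 0.107, with 1.45e-06 to 0.107 over 19 alternatives). Differences between the relatives were not tested.

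One called fall had its Gr1hi mean at the floor of the array, and another lay close to it. Mrps27, a small subunit protein, read 2.66, 2.77 and 2.47 in Gr1hi and 3.07, 3.52 and 3.43 in Gr1lo. Its Gr1hi mean of 2.63 was within the range of the controls for absent transcripts, and how large its difference of -0.71 (adjusted p = 1.89e-03) comes out depends on that background. Mrps6 read 3.04, 2.87 and 2.70 in Gr1hi and 4.55, 5.92 and 4.26 in Gr1lo. The size of its difference of -2.04 (adjusted p = 1.09e-03) likewise depends on the background. Another tested probe set of Mrps6 was called lower too, but by only -0.76.

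Probe sets that were not chosen were read as well. Of the 76 members 35 had another tested probe set, 61 in all. Of these 41 were called, all 41 with the sign of the chosen probe set and 0 with the opposite sign. They include the probe sets of Mrpl1 and Mrps21, whose chosen probe set was not called. The others were not called, among them those of Mrps2, Mrpl35 and Mrpl47.

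Within Gr1lo the members varied together. The median level of the 76 genes was 6.59, 6.56 and 6.47 on Gr1hi arrays 1 to 3 and 8.13, 8.78 and 8.26 on Gr1lo arrays 1 to 3. Gr1lo replicate 2 was the highest of its group in 66 members, whereas it was the highest in 36.8% of all genes tested. As deviations from the mean of their own group, the members had medians of -0.01, -0.03 and 0.07 on the Gr1hi arrays and -0.17, 0.27 and -0.09 on the Gr1lo arrays. On Gr1lo replicate 2 the median deviation was 0.08 for cytosolic ribosomal protein genes and 0.07 for respiratory chain genes. On that array 73 members (96.1%) lay above their group mean, against 49.5% of all genes. So did 42 of 48 cytosolic ribosomal protein genes (87.5%) and 62 of 77 respiratory chain genes (80.5%). The shift on this array was thus shared by these lists, though smaller there. The SD between replicates had a median of 0.157 in Gr1hi and 0.255 in Gr1lo over the members, and of 0.153 and 0.151 over all genes. Without Gr1lo replicate 2, 65 members were lower and 2 higher, with a median difference of -1.58. The share of all genes lower in that fit is not given here.

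**Figure D3:**
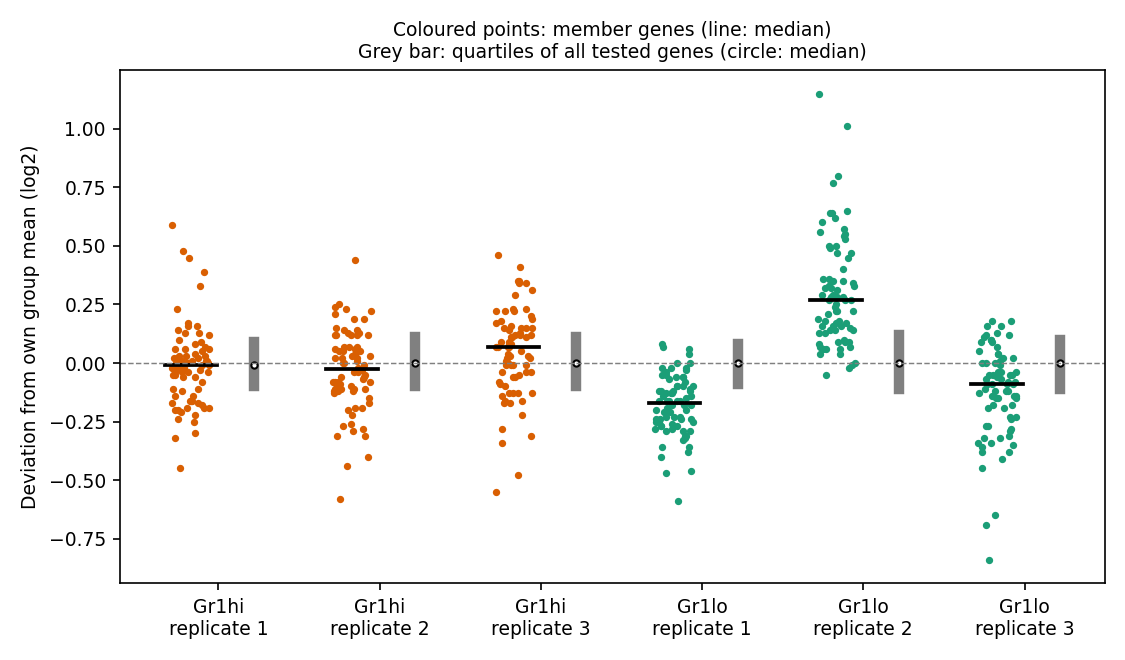
Deviation of each of the 76 members from the mean of its own group (log2, y axis) on each array, Gr1hi arrays in orange at the left and Gr1lo arrays in green at the right, with a line at the members' median and a grey bar for the quartiles of all tested genes. On Gr1lo replicate 2 the members sit at a median of 0.27 above their group mean, while all tested genes stay centred near 0.

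Genes of other protein-making and respiratory complexes were set beside the members. Of 48 tested cytosolic ribosomal protein genes 40 were lower and 0 higher, with a median of -1.06, and 30 were lower and 7 higher after centring on the median of tested genes. Of 77 tested nuclear genes of the respiratory chain and ATP synthase 58 were lower and 1 higher, with a median of -0.64. After that centring 25 (32.5%) were lower and 28 (36.4%) higher, against 18.2% and 65.6% of all genes. The members' median of -1.69 was below both, and the differences between these lists were not tested. Falls of at least 4-fold were found in 30 of 76 members, 5 of 48 cytosolic ribosomal protein genes and 4 of 77 respiratory chain genes. Over all genes tested 9.04% had such a fall.

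**Figure D4:**
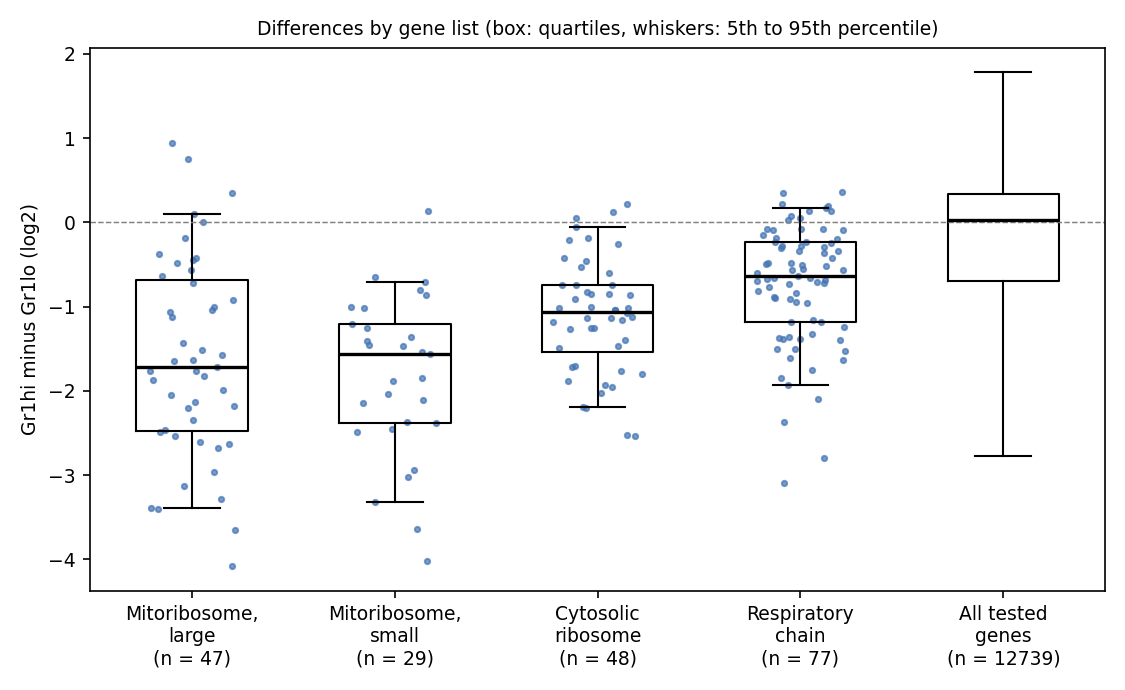
Differences between Gr1hi and Gr1lo (log2, y axis) on the deposited scale for the members by subunit, cytosolic ribosomal protein genes, respiratory chain genes and all tested genes, with a point for each gene (not drawn for all genes), boxes at the quartiles and whiskers from the 5th to the 95th percentile. The medians are -1.72 and -1.56 for the large and small subunits and -1.06 for the cytosolic ribosome. They are -0.64 for the respiratory chain and 0.03 for all genes. After centring on the median of tested genes the respiratory chain has a median of 0.03 and all genes have one of 0.7.

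Genes that act with the mitochondrial ribosome were read from lists by role. The background for them on the deposited scale was 31.8% of all genes lower and 24.6% higher. Under centring on the median of tested genes it was 18.2% lower and 65.6% higher. Of 4 ribosomal subunits with other names all 4 were lower, with a median of -2.01. Ptcd3, a small subunit protein with RNA-binding repeats, read 5.82, 5.81 and 6.00 in Gr1hi and 8.39, 8.84 and 8.35 in Gr1lo (-2.65, adjusted p = 2.45e-06). Gadd45gip1, a large subunit protein near the tunnel exit, differed by -2.32 (adjusted p = 6.18e-05), and Chchd1 of the small subunit by -1.70 (adjusted p = 6.72e-06). Averaging the probe sets of each gene gave smaller falls of -1.19 for Ptcd3 and -1.14 for Gadd45gip1. It left Chchd1 unchanged and kept these calls. Dap3, the GTP-binding protein of the small subunit, had the smallest difference of them, with 9.37, 9.38 and 9.35 in Gr1hi and 9.70, 9.77 and 9.84 in Gr1lo (-0.40, adjusted p = 7.93e-03). Its call was lost without both replicate 3 arrays (-0.36, adjusted p = 0.0725), and its sign turned after centring on the median of tested genes (0.27, adjusted p = 0.0541, with 2.45e-03 to 1 over 19 alternatives). After centring on the median of tested genes 3 of these 4 were lower and 0 higher.

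Translation factors were lower in 9 of 12 and higher in 0, with a median of -1.62. Mtrf1l, a release factor, differed by -2.70 (adjusted p = 2.30e-05) and Gfm1, the elongation factor G of mitochondria, by -2.43 (adjusted p = 1.32e-04). Tsfm, which recharges the elongation factor Tu, read 3.26, 3.24 and 2.94 in Gr1hi and 4.67, 5.20 and 4.48 in Gr1lo (-1.64, adjusted p = 1.10e-04). Lars2, the leucyl-tRNA synthetase, which stands in this list and in that of the synthetases, differed by -1.98 (adjusted p = 1.68e-05). With the probe sets of each gene averaged the falls were -1.55 for Gfm1, -0.7 for Tsfm and -0.55 for Lars2. Mtrf1l was unchanged, and all of them stayed called. After centring on the median of tested genes 7 of the 12 were lower and 2 higher.

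Of 19 mitochondrial tRNA synthetase genes and relatives 12 were lower and 0 higher, with a median of -0.88. Besides Lars2, Iars2 for isoleucine differed by -1.96 (adjusted p = 9.36e-05), Fars2 for phenylalanine by -1.62 (adjusted p = 1.33e-05), and Gatc, a subunit of the enzyme that makes glutaminyl-tRNA, by -1.07 (adjusted p = 3.72e-05). After centring on the median of tested genes 8 (42.1%) were lower and 4 (21.1%) higher, against 18.2% and 65.6% of all genes.

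Assembly factors, which fold and modify the ribosomal RNAs, divided more. Of 24 genes 16 were lower and 2 higher, with a median of -0.64. After centring on the median of tested genes 8 (33.3%) were lower and 9 (37.5%) higher, against 18.2% and 65.6% of all genes. Tfb1m, which methylates the small subunit RNA, differed by -2.62 (adjusted p = 3.97e-06) and the RNA chaperone gene Eral1 by -2.41 (adjusted p = 1.74e-05). The helicase gene Dhx30 differed by -2.15 (adjusted p = 3.91e-05) and the methyltransferase gene Trmt2b by -1.86 (adjusted p = 5.59e-06). With the probe sets of each gene averaged they stayed called, at -1.98 for Tfb1m, -0.93 for Eral1, -1.45 for Dhx30 and -0.94 for Trmt2b. Nsun4, also a methyltransferase of the small subunit RNA, was higher, at 5.53, 5.07 and 4.80 in Gr1hi and 4.43, 4.13 and 4.39 in Gr1lo (0.82, adjusted p = 0.0107). Rbfa, which helps mature the small subunit, was higher as well, at 10.16, 10.21 and 10.19 in Gr1hi and 9.59, 9.55 and 9.86 in Gr1lo (0.52, adjusted p = 3.45e-03). Neither of them overlapped between the groups, and centring on the hybridization controls left 19 of the list lower and 0 higher, with Nsun4 at 0.56 and Rbfa at 0.26.

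Mitochondrial transcription and RNA processing genes were lower in 14 of 15 tested, with a median of -1.17, and in 8, with 1 higher, after centring on the median of tested genes. Pnpt1, an exoribonuclease subunit, read 3.51, 3.38 and 3.35 in Gr1hi and 7.0, 7.73 and 7.23 in Gr1lo, a 15-fold difference (-3.91, adjusted p = 7.96e-07) with no overlap. Lrpprc and Slirp, whose proteins together stabilise mitochondrial messengers, differed by -3.25 (adjusted p = 2.74e-06) and -2.31 (adjusted p = 2.72e-06). Tfam, which packs mitochondrial DNA and starts its transcription, read 5.50, 5.01 and 5.54 in Gr1hi and 8.47, 8.72 and 8.16 in Gr1lo (-3.10, 8.57-fold, adjusted p = 2.71e-06). Averaging the probe sets of each gene reduced the falls of Pnpt1 to -1.6 and of Tfam to -1.9. It left Lrpprc and Slirp unchanged, and all of them stayed called.

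Markers of the amount of mitochondria were lower in 13 of 13 genes, with a median of -1.48, and in 11, with 1 higher, after centring on the median of tested genes. Immt, which shapes the inner membrane, differed by -2.86 (adjusted p = 1.02e-06) and the import receptor gene Tomm70a by -2.18 (adjusted p = 2.58e-06). The outer membrane channel genes Vdac3 and Vdac1 differed by -1.56 (adjusted p = 2.20e-06) and -1.15 (adjusted p = 1.42e-05). The amount of mitochondria itself was not measured, and its part in the members' differences was not tested.

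Regulators of mitochondrial biogenesis went both ways. Of 7 tested 4 were lower and 1 higher. After centring on the median of tested genes 2 were lower and 3 higher, against 18.2% and 65.6% of all genes. Myc read 3.01, 2.76 and 2.76 in Gr1hi and 5.48, 6.24 and 4.50 in Gr1lo (-2.56, adjusted p = 2.41e-04), and Pprc1, a coactivator that responds to growth signals, differed by -2.18 (adjusted p = 2.23e-03). Gabpa and Gabpb1 encode the subunits of GABP, which binds the CCGGAAG motif shown in the promoters. Gabpa read 9.64, 9.36 and 9.47 in Gr1hi and 10.49, 10.46 and 10.30 in Gr1lo (-0.93, adjusted p = 9.18e-05), and Gabpb1 differed by -0.62 (adjusted p = 5.29e-03). The groups did not overlap in either gene on the deposited scale. After centring on the median of tested genes neither was called, with differences of -0.25 for Gabpa (adjusted p = 0.064, with 1.27e-06 to 0.064 over 19 alternatives) and 0.06 for Gabpb1 (adjusted p = 0.723, with 5.55e-04 to 0.973). The mean of its probe sets also ended the call of Gabpb1 (-0.16). Esrra, a nuclear receptor, was higher, at 6.46, 6.70 and 7.03 in Gr1hi and 6.26, 5.77 and 6.15 in Gr1lo (0.67, adjusted p = 0.0246). That call was lost under centring on the hybridization controls (0.41, adjusted p = 0.18) and without Gr1hi replicate 2 (0.69, 0.0551), Gr1hi replicate 3 (0.52, 0.0912), Gr1lo replicate 2 (0.53, 0.068) or both replicate 3 arrays (0.57, 0.118), with an adjusted p of 2.53e-04 to 0.834 over 19 alternatives. Nrf1 (0.35, adjusted p = 0.0659) and Yy1 (0.11, adjusted p = 0.278) were not called, and the coactivator genes Ppargc1a and Ppargc1b did not pass the filter on low values.

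**Figure D5:**
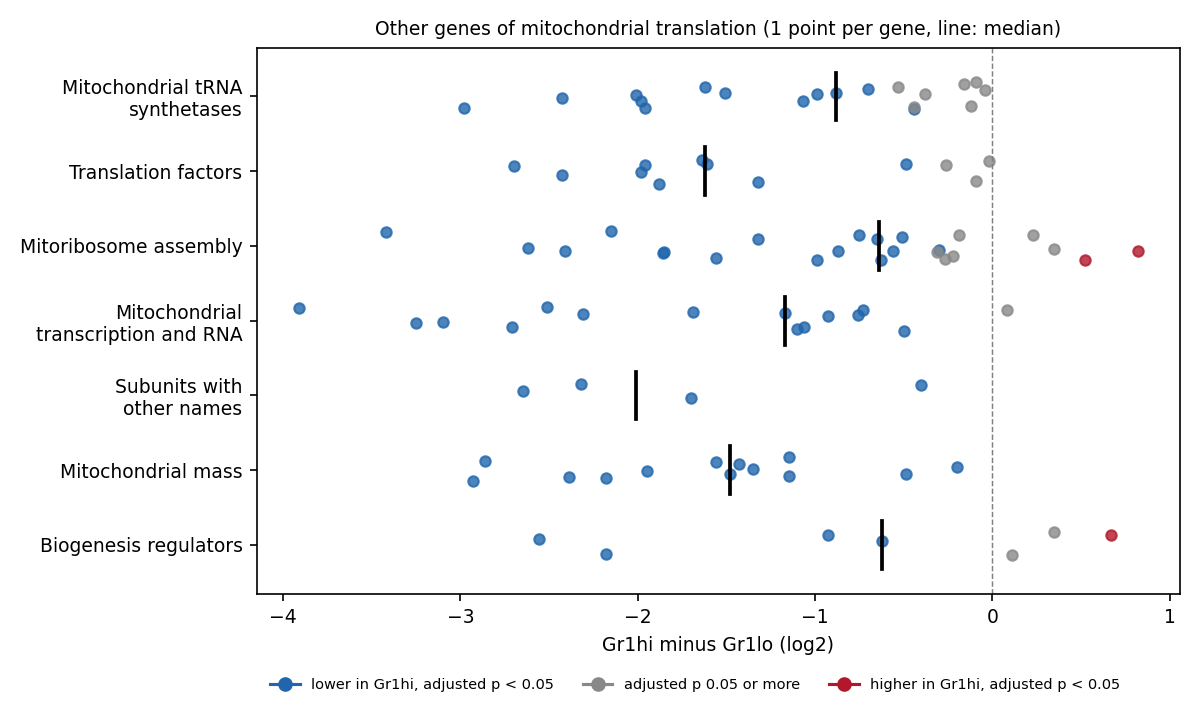
Difference between Gr1hi and Gr1lo (log2, x axis) on the deposited scale for each tested gene of 7 lists of mitochondrial translation and biogenesis (rows), blue for lower, red for higher and grey for not called, with a line at each list's median. Medians lie between -2.01 for ribosomal subunits with other names and -0.62 for biogenesis regulators, and Rbfa, Nsun4 and Esrra are the 3 genes called higher. Centring on the median of tested genes gives 9 assembly factors and 3 regulators higher, and 65.6% of all genes are higher under it.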

How the data were processed

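Total RNA (100 ng a sample) was labelled for Affymetrix 3' arrays, per the labels' protocols. The authors deposited log2 probe set values from GCRMA (per the submitters' processing notes). Its version is not given in the sources used here. GCRMA as usually run equalizes the arrays' distributions, so differences are relative. The members and lists were chosen with earlier results of these data known. Of 45101 probe sets, 64 controls were set aside, 34945 had 1 gene symbol, 932 several and 9160 none listed. Genes above the 40th percentile of an array on at least 3 of 6 arrays were tested (12739 tested, 5454 set aside). The groups were compared with limma 3.58.1 under R 4.3.3 (lmFit and eBayes with trend, two-sided, Benjamini-Hochberg over all tested genes, threshold 0.05; 4 residual and 5.11 prior degrees of freedom). The number of arrays limits the precision. On simulated data with the means and spreads of these 12739 genes, 50 genes each were changed by 0.5, 1, 2 and 4 (log2). The fit recovered 22%, 70%, 94% and 100% of them, with 8 false calls. Far fewer genes were changed there than the 56.4% called here, so these rates need not hold for this comparison.

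Members named are the 10 largest falls, all that were higher and those of 5 structural groups; pathway genes named are up to 4 a list with the smallest p and those against their list's majority. Mrpl1, Mrpl14, Mrpl24, Mrpl43, Mrps6, Mrps21, Mrps22, Mrps26, Mrps27, Nrf1, Yy1, Ppargc1a and Ppargc1b were named after their values were seen. Alternatives covered the filter, probe sets, variance model, scaling, array weights, replicate block, thresholds and arrays left out. Promoters were read from RefSeq (GRCm38.p6), and Python 3.11.15, pandas 2.3.3 and matplotlib 3.10.9 gave summaries and figures.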

Additional observations from a re-analysis of the deposited data

How the results depend on the processing

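The count of 67 members lower stayed between 54 and 69 under every alternative that kept 1 value per gene. The median difference stayed negative. Over all genes tested 31.8% were lower in the main fit, 18.2% after centring on their median and 38.1% after centring on hybridization controls. That share was 30.7% under repeated quantile normalization and 29.3% without both replicate 3 arrays. No such share is given for the other alternatives, so their counts describe the members alone. Testing each probe set on its own gave 106 of 137 lower, 66 of them in Mrpl genes, 4 higher, and a median of -1.28. Averaging the probe sets of each gene gave 66 lower, 4 higher (Mrpl10, Mrpl23, Mrpl33 and Mrps21) and a median of -1.21. Centring on the median of tested genes gave 54 lower, 8 higher and a median of -1.01, and turned Mrpl38 to 0.25. A test against a 1.5-fold change left 55 lower and 1 higher. Leaving out each array in turn gave 64 to 69 members lower, 2 to 2 higher, 36 to 41 Mrpl and 28 to 28 Mrps genes lower, and medians of -1.77 to -1.58. With the replicate number as a block 67 were lower and 2 higher, with a median of -1.69. Deviations from the group means correlated at 0.166, 0.00429 and 0.145 between arrays of the same number. Between arrays of different numbers the correlations ran from -0.188 to 0.0436. Whether the numbers pair the arrays was not settled. The cause of these changes was not tested, and a low value could not be told from an absent transcript below 2.77.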

Other observations

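Some probe sets name a mitochondrial ribosomal protein gene together with another gene and were left out of the counts. The probe set shared by Mrpl53 and Ccdc142 read 8.17, 8.01 and 8.29 in Gr1hi and 8.61, 9.05 and 8.77 in Gr1lo, a difference of -0.65. Those shared by Mrpl30 and Gm6238 differed by -0.97 and -0.25, and the one shared by Mrps34 and Nme3 by -0.47. Mrpl30 and Mrpl53 have no probe set that names them alone, so they are not among the 76 members, and which of the paired genes gives the signal cannot be told apart.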
